A study of Mus musculus with 4 samples.

Results

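The genes described are 9 regulators of G protein signalling (RGS): Rgs1, Rgs2, Rgs3, Rgs10, Rgs12, Rgs14, Rgs16, Rgs18 and Rgs19. Every probe set whose platform annotation gives only one of these genes was taken, which gave 21 probe sets among the 45101 on the array, or 9 of 18193 genes measured. Each probe set combines several short probes, and some probe sets are shared between transcripts. RNA came from mouse bone marrow-derived macrophages of C57BL/6 background, grown from marrow for 5 days in medium with 10% L929 cell supernatant, which supplies M-CSF. The cells were a double knockout (DKO) of Hes1 and Hey1, which encode transcriptional repressors downstream of Notch, or wild type (WT). Cells of each genotype received 2 ng/ml lipopolysaccharide (LPS, from Escherichia coli 0111:B4, the bacterial ligand of TLR4) for 3 h or were left untreated. Its question was which inflammatory genes depend on these repressors. How the knockout was made, in which cells it acts and how many mice gave cells for an array are not given in the sources used here.

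There were 4 groups, DKO with LPS, untreated DKO, WT with LPS and untreated WT, with 1 array each. No difference below therefore has a replicate check, no p-value or error is given, and the number of arrays limits the precision. Values are linear intensity units. A floor was set at the pooled median of all arrays, 52.9 units, and lower values were raised to it before taking log2. Where 1 of the compared arrays lies under it, the difference is a bound, written "at least". A gene was called higher or lower at 2-fold or more, and the brightest of its probe sets, by the mean of its values, stands for it. Intensities of different probe sets are not on a common scale, so the levels of different RGS genes are not ranked.

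RGS proteins bind the active, GTP-bound alpha subunit of heterotrimeric G proteins and speed up GTP hydrolysis, which shortens signalling from G protein-coupled receptors. In macrophages and other leukocytes such receptors read chemokines, prostaglandins, nucleotides and complement fragments. The family is divided by sequence: members of the R4 group are mostly small proteins with little beyond the RGS domain (Rgs1, Rgs2, Rgs16 and Rgs18, with Rgs3 having longer forms), the R12 group holds Rgs10, Rgs12 and Rgs14, and Rgs19 belongs to the RZ group.

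LPS moved 3 of the 9 genes by 2-fold or more. Rgs2 fell in both genotypes and Rgs16 rose in both, and Rgs14 fell by 2-fold or more in DKO cells, with a smaller difference in WT cells. In DKO cells 1 of 9 members was higher and 2 were lower, where 4.66% of 11240 genes with a difference were higher and 4.77% lower. In WT cells 1 was higher and 1 lower, where 3.36% of 11489 genes were higher and 3.41% lower. The WT split of 386 higher and 392 lower genes depended on scaling: equal array medians gave 520 and 194, quantile normalization 429 and 255, and cyclic loess 447 and 223. The median log2 difference with LPS was -0.44 over the 9 members in DKO cells, against -0.10 over all genes there, and -0.42 over the members in WT cells, against -0.086 over all genes. Of the 21 probe sets, 14 lay above the floor on all arrays, 4 on some and 3 on none, and Rgs16 was the 1 gene whose brightest probe set was under the floor on any array.

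**Figure D1:**
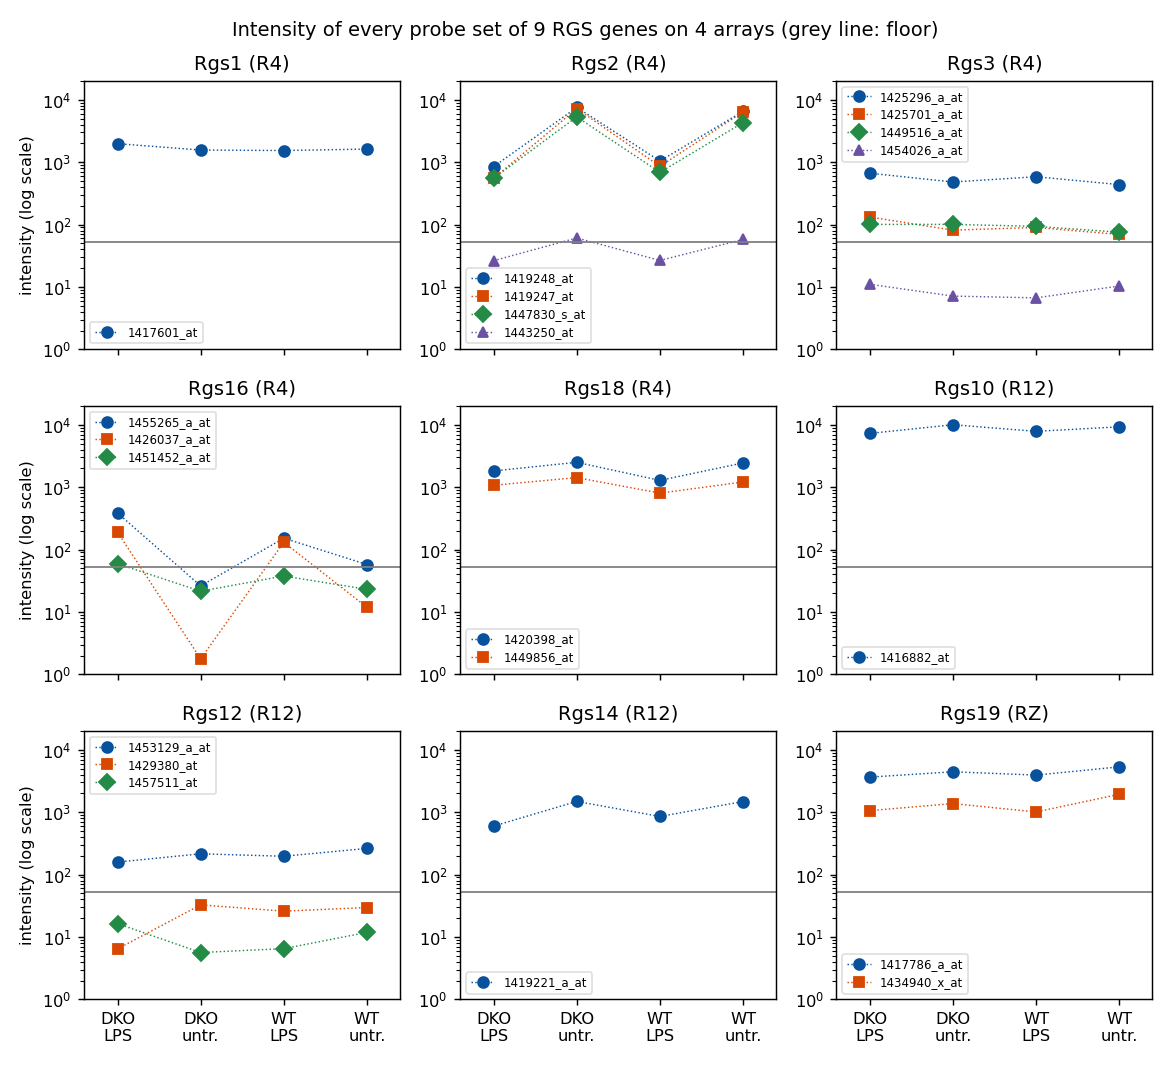
Intensity (log scale) of each of the 21 probe sets on the DKO array with LPS, the untreated DKO array, the WT array with LPS and the untreated WT array; each point is 1 array, dotted lines join the values of a probe set and the grey line is the floor of 52.9 units. The 3 bright probe sets of Rgs2 dip on both LPS arrays, and those of Rgs16 peak there.

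Rgs2, an R4 member known for its preference for Gq alpha subunits, gave the lowest values on the LPS arrays with each of its bright probe sets. Probe set 1419248_at gave 849 units in DKO cells with LPS and 7546 in untreated DKO cells, against 1044 in WT cells with LPS and 6554 in untreated WT cells. Rgs2 was thus 8.89-fold lower with LPS in DKO cells (log2 difference -3.15) and 6.28-fold lower in WT cells (-2.65). It ranked 5 from the lowest among 11240 genes in DKO cells and 2 from the lowest among 11489 in WT cells.

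Of its other probe sets, 1419247_at gave 551 units in DKO cells with LPS and 7229 without, against 858 in WT cells with LPS and 6394 without. Probe set 1447830_s_at gave 552 in DKO cells with LPS and 5321 without, against 687 in WT cells with LPS and 4315 without. The 3 bright probe sets of Rgs2 therefore agreed on a fall with LPS in both genotypes, at log2 differences of -3.15, -3.71 and -3.27 in DKO cells and -2.65, -2.90 and -2.65 in WT cells. The dim 1443250_at was under the floor on both LPS arrays and gave bounds of at least 1.15-fold lower in DKO cells and at least 1.09-fold lower in WT cells.

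The genotypes differed less in Rgs2 than the treatments did. With LPS, 1419248_at read lower in DKO than in WT cells by a log2 difference of -0.30, 1419247_at by -0.64 and 1447830_s_at by -0.32. Without LPS the same probe sets read slightly the other way, at 0.20, 0.18 and 0.30, and none of these differences reached 2-fold. With equal array medians the untreated value of 1419248_at was 0.42. The LPS difference in DKO cells minus that in WT cells was -0.50, -0.82 and -0.62, a larger fall in DKO cells by all 3 bright probe sets. The same quantity read by the 2 brightest probe sets of a gene was a median of 0.27 apart over 4709 genes with 2 such probe sets. That gap is between probe sets on the same arrays and does not measure the spread between cultures or arrays. The 3 probe sets of Rgs2 read the same RNA, so their agreement is no replicate of a genotype difference.

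Rgs16, an R4 member that acts on Gi and Gq alpha subunits, was dim in untreated cells and higher with LPS. Its brightest probe set, 1455265_a_at, gave 386 units in DKO cells with LPS and 26.2 in untreated DKO cells, under the floor, against 153 in WT cells with LPS and 57.6 in untreated WT cells. The LPS arrays were the 2 highest, and the DKO array with LPS stood above the WT array with LPS. Rgs16 was at least 7.30-fold higher with LPS in DKO cells and 2.65-fold higher in WT cells, with the untreated WT value close to the floor. The DKO bound depends on the floor and on the probe sets: its log2 value of 2.87 became 3.88 with a floor at the 35th percentile, 1.20 with one at the 65th and 1.85 with the median of probe sets.

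A further probe set of Rgs16, 1426037_a_at, gave 191 units in DKO cells with LPS and 1.78 without, against 131 in WT cells with LPS and 11.9 without. Both untreated values lay under the floor, so the bounds were at least 3.60-fold higher in DKO cells and at least 2.47-fold higher in WT cells. The third, 1451452_a_at, passed the floor in DKO cells with LPS alone, at 59.4 units, against 21.5 in untreated DKO cells, 37.8 in WT cells with LPS and 23.1 in untreated WT cells. All 3 probe sets gave their highest value on the DKO array with LPS.

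Rgs16 was also the member that differed between genotypes by 2-fold. With LPS it was 2.53-fold higher in DKO than in WT cells by 1455265_a_at (log2 difference 1.34), where 0.845% of 11236 genes were higher and 0.934% lower. It ranked 27 from the highest among those genes. The second probe set gave 1.46-fold and the third at least 1.12-fold, both short of 2-fold, and with the median of its probe sets Rgs16 was not called. The LPS difference was larger in DKO than in WT cells by a log2 value of at least 1.46 with 1455265_a_at, where 1.92% of 10901 genes had a difference larger by 2-fold or more in DKO cells and 0.89% a smaller one. That value became 0.54, short of 2-fold, with the median of probe sets, and 2.48 with a floor at the 35th percentile. With equal array medians it was 1.34 and with quantile normalization 1.35. Under these 2 scalings both untreated values lay under the floor, so it was no bound and equalled the difference between genotypes with LPS.

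**Figure D2:**
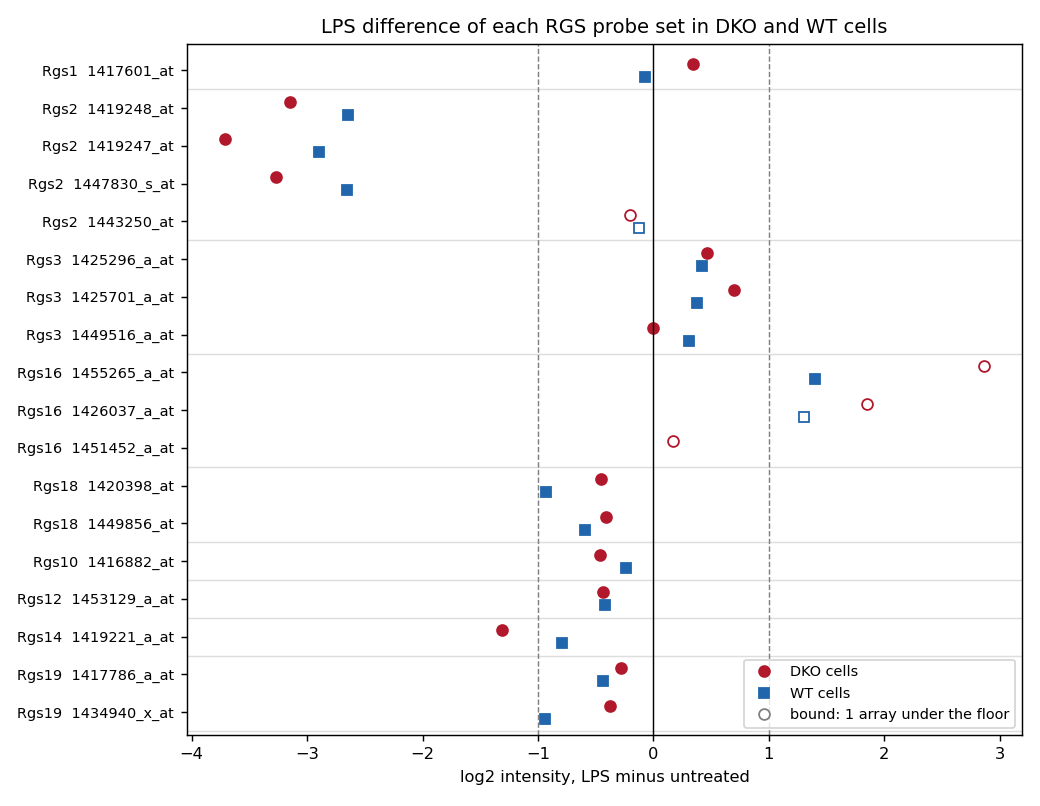
Log2 intensity with LPS minus untreated for each RGS probe set with a difference, in DKO cells (red circles) and WT cells (blue squares); open symbols are bounds with 1 array under the floor and dashed lines mark 2-fold. The 3 bright probe sets of Rgs2 lie between -3.71 and -2.65, and 2 of the 3 of Rgs16 lie past 2-fold on the higher side in DKO cells.

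The promoter windows of these opposite responders are shown because the knocked-out genes encode DNA-binding repressors and LPS acts through NF-kB and AP-1 factors. HES proteins are known to bind N box and class C sequences and HEY proteins E box sequences. RefSeq windows of GRCm38.p6 run from 250 bases before to 50 after an annotated start, and 6 of the 9 members matched, with 10 windows. Capitals mark any match, on either strand, to CACGTG (E box), CACNAG (N box), CACGNG (class C site), GGG and CC with any 5 bases between them (a loose kB-type word), TGACGTCA (cAMP response element) or TGACTCA (AP-1). CACGTG is itself a CACGNG word, and CACGAG matches both CACNAG and CACGNG.
Rgs2, chr1:144004100-144004399, minus strand: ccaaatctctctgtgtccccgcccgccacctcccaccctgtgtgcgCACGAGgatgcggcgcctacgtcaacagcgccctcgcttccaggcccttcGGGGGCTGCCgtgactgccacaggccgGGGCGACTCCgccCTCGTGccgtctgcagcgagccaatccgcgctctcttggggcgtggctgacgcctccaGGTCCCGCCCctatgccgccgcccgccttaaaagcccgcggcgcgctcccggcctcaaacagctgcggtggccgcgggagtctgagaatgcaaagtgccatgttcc
Rgs16, chr1:153740103-153740402, plus strand: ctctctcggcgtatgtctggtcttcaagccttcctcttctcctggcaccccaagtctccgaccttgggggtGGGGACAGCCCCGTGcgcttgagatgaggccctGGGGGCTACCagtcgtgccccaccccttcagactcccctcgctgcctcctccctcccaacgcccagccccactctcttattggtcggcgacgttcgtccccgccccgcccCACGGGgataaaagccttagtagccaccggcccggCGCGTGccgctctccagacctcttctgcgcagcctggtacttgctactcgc

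The Rgs2 window held CACGAG starting 204 bases before the start and its reverse complement CTCGTG at 114 bases before, each an N box and a class C word at once, and 3 kB-type words. The Rgs16 window held 3 class C words, at 170, 36 and 1 bases before the start, and 4 overlapping or separate kB-type words, with no N box. Neither held the E box, cAMP response element or AP-1 words. Over all 32851 windows of this length, 42.5% held an N box word, 27.5% a class C word, 50.8% a kB-type word, 7.15% an E box, 5.20% an AP-1 word and 1.79% a cAMP response element word. Both windows were rich in G and C, at 70% for Rgs2 and 66% for Rgs16, against a median of 52.7% over all windows. Members that LPS did not move by 2-fold also held such words. The Rgs10 window held 6 kB-type words and 1 class C word, and 1 Rgs12 window held 7 and 1. The Rgs3 windows held none of the words. These matches describe letters in a window and not bound sites.

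Rgs14, an R12 member that combines its RGS domain with Ras-binding and GoLoco domains, had 1 probe set, 1419221_a_at. It gave 601 units in DKO cells with LPS and 1493 in untreated DKO cells, against 856 in WT cells with LPS and 1484 in untreated WT cells. The untreated arrays were nearly equal, and the DKO array with LPS was the lowest. Rgs14 was 2.49-fold lower with LPS in DKO cells (log2 difference -1.31) and 1.73-fold lower in WT cells (-0.79), short of the call. With LPS it read 1.43-fold lower in DKO than in WT cells (-0.51), and without LPS the difference was 0.0081.

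Rgs18, an R4 member known mainly from megakaryocytes, platelets and myeloid cells, had the opposite order between genotypes. Probe set 1420398_at gave 1826.5 units in DKO cells with LPS and 2508 in untreated DKO cells, against 1288 in WT cells with LPS and 2453 in untreated WT cells. The WT array with LPS was the lowest, and the untreated arrays were nearly equal. Rgs18 was 1.37-fold lower with LPS in DKO cells (log2 difference -0.46) and 1.90-fold lower in WT cells (-0.93), neither reaching 2-fold. Probe set 1449856_at gave 1076 in DKO cells with LPS and 1427 without, against 803 in WT cells with LPS and 1213 without. Its LPS differences were -0.41 in DKO cells and -0.60 in WT cells, so both probe sets gave the smaller difference in DKO cells, by log2 values of 0.47 and 0.19.

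Rgs1, an R4 member that limits chemokine receptor signalling in lymphocytes, was read by 1417601_at alone. It gave 1982 units in DKO cells with LPS and 1565 in untreated DKO cells, against 1539 in WT cells with LPS and 1623 in untreated WT cells. The DKO array with LPS stood above the other 3. The log2 difference with LPS was 0.34 in DKO cells and -0.077 in WT cells, and the WT difference became 0.14 when array medians were set equal.

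Rgs3, an R4 member with several long and short isoforms, was read above the floor by 3 of its 4 probe sets. The brightest, 1425296_a_at, gave 666 units in DKO cells with LPS and 481 in untreated DKO cells, against 585 in WT cells with LPS and 438 in untreated WT cells. Both LPS arrays stood above both untreated arrays, by log2 differences of 0.47 in DKO cells and 0.42 in WT cells. Probe set 1425701_a_at gave 0.70 in DKO cells and 0.37 in WT cells, and 1449516_a_at gave -0.0013 in DKO cells and 0.31 in WT cells, so the probe sets did not agree on the DKO response. Probe set 1454026_a_at gave at most 11.0 units on any array.

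Rgs10, a small R12 member known in microglia and macrophages as a restraint on inflammatory activation, was bright on every array. Probe set 1416882_at gave 7289 units in DKO cells with LPS and 10037.5 in untreated DKO cells, against 7867 in WT cells with LPS and 9290.0 in untreated WT cells. Both LPS arrays lay below both untreated arrays, by log2 differences of -0.46 in DKO cells and -0.24 in WT cells, or -0.024 in WT cells with array medians set equal.

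Rgs12, the largest R12 protein, with a PDZ domain beside its RGS domain, was above the floor by 1 of 3 probe sets. Probe set 1453129_a_at gave 159 units in DKO cells with LPS and 216 in untreated DKO cells, against 197 in WT cells with LPS and 263 in untreated WT cells. The LPS differences were alike, -0.44 in DKO cells and -0.42 in WT cells, and DKO cells read lower than WT cells by -0.31 with LPS and -0.29 without. With equal array medians the difference without LPS was -0.076.

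Rgs19, the RZ member first known as a partner of the Gi3 alpha subunit, had 2 bright probe sets. Probe set 1417786_a_at gave 3662 units in DKO cells with LPS and 4453 in untreated DKO cells, against 3941.5 in WT cells with LPS and 5340.05 in untreated WT cells. The untreated WT array was the highest. The LPS differences of 1417786_a_at were -0.28 in DKO cells and -0.44 in WT cells, and 1434940_x_at gave -0.37 in DKO cells and -0.94 in WT cells. With equal array medians 1417786_a_at gave -0.28 in DKO cells and -0.22 in WT cells, so the order of the genotypes was reversed. Its untreated difference in DKO against WT cells then went from -0.26 to -0.050.

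**Figure D3:**
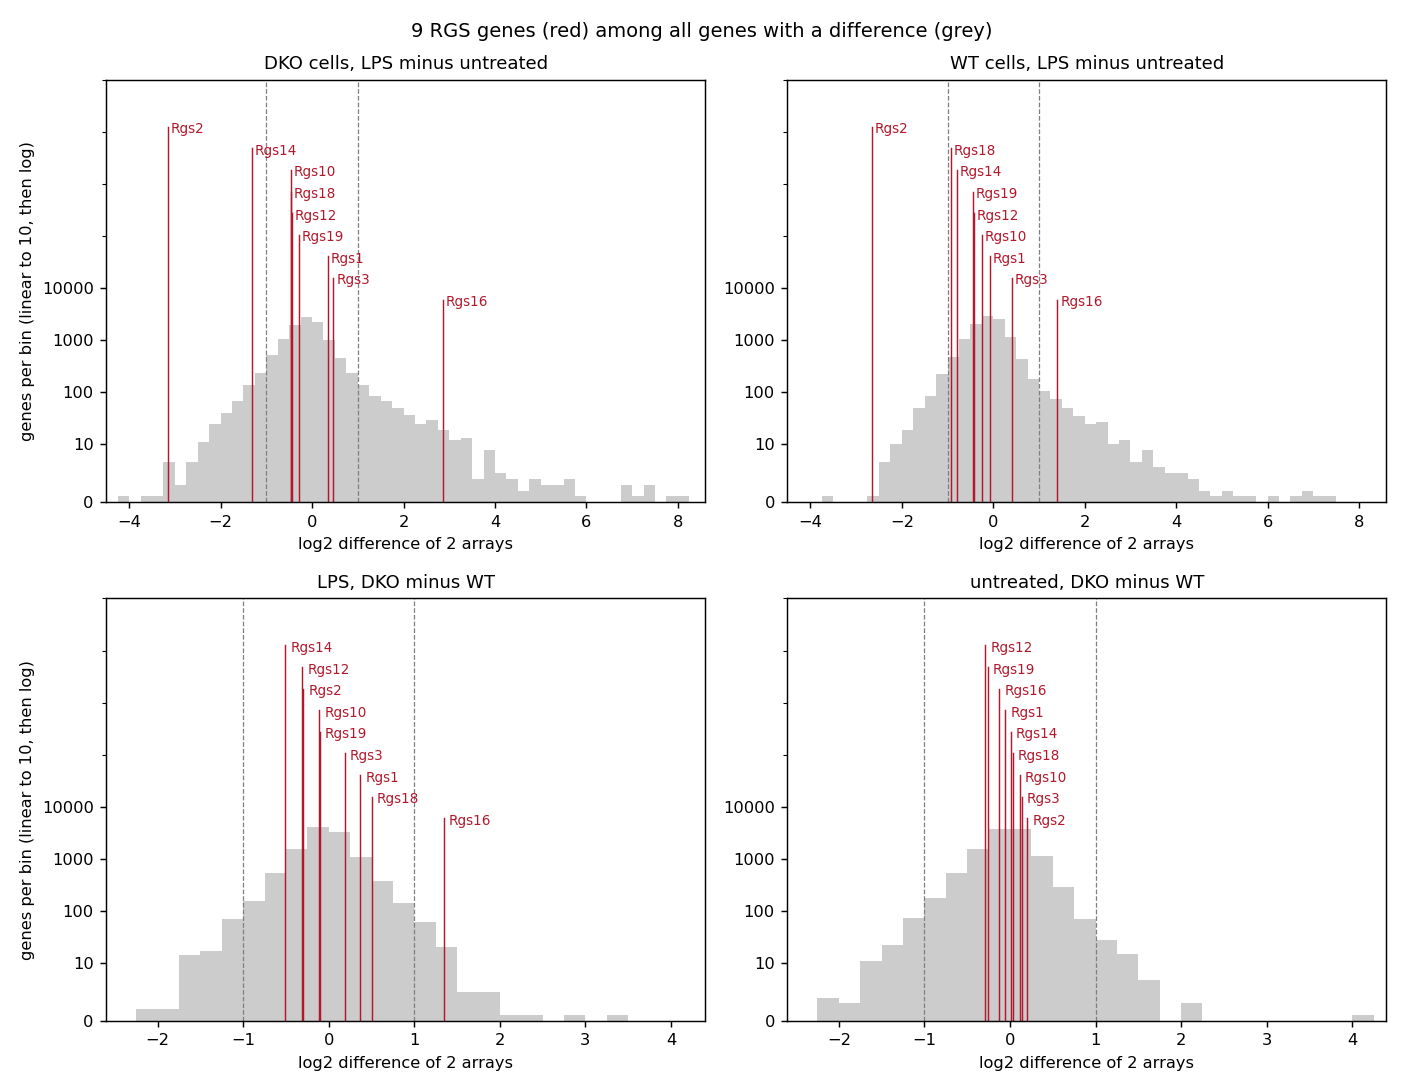
Log2 difference of 2 arrays for all genes with a difference (grey bars, genes per bin of 0.25, on an axis that is linear to 10 and logarithmic above) with the 9 RGS genes as red lines, whose heights carry no value; dashed lines mark 2-fold. Rgs2 lies at the lower edge of both LPS panels, Rgs16 past 2-fold in both LPS panels and in DKO minus WT with LPS, and the 9 lie within 2-fold in untreated cells, Rgs16 there as a bound.

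Without LPS no member was called between genotypes, where 0.466% of 11379 genes were higher in DKO cells and 0.984% lower. That split of 53 higher and 112 lower genes also depended on scaling: equal array medians gave 97 and 43, quantile normalization 66 and 71, and cyclic loess 64 and 68. For Rgs16 the absence of a call is set by the floor: its untreated DKO value lay under it, so the difference is a bound of at least 1.09-fold lower in DKO cells, and with a floor at the 35th percentile Rgs16 was called lower at -1.14. The differences of the other 8 members ran from -0.29 for Rgs12 to 0.20 for Rgs2. With equal array medians they ran from -0.076 for Rgs12 to 0.42 for Rgs2, and their median was 0.23, against 0.19 over all genes. With the deposited scaling the median over the 9, with Rgs16 at its bound, was 0.0081, against -0.017 over all genes. With LPS the members' median was -0.11 in DKO against WT cells, against -0.040 over all genes, with 4 members positive and 5 negative. The comparisons between genotypes and those between treatments share arrays, so their values are given side by side only.

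Other members of the G protein pathway were counted from lists. Of 12 measured genes among the other RGS genes and RGS binding proteins, 4 were above the floor on any array. With LPS none passed 2-fold in DKO cells, and in WT cells Rgs7bp, an anchor protein of R7 group members, was at least 2.02-fold lower. Under the 3 other scalings Rgs7bp did not pass 2-fold. Rgs9, an R7 group member, was higher with LPS in DKO cells by a log2 value of at least 0.96, and passed 2-fold under those scalings at 1.02 to 1.11. It gave 103 units in DKO cells with LPS and 39.7 without, under the floor, so the absence of its call is set by the floor. Rgs9 was chosen for mention after its values were seen. Among proteins of other families with an RGS homology domain, 1 of 13 with a difference was higher with LPS in DKO cells and 0 of 12 in WT cells. It was Grk3, a kinase of active receptors, at 2.03-fold, with its other 2 probe sets at log2 differences of 0.58 and 0.84. Over all genes with a difference, 4.66% were higher and 4.77% lower in DKO cells, and 3.36% higher and 3.41% lower in WT cells.

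With the deposited scaling no G alpha, beta or gamma subunit passed 2-fold in any of the 4 comparisons, among 10 of 13 alpha and 13 of 14 beta and gamma subunits above the floor on at least 1 array. Over all genes the share past 2-fold in a given direction was 3.36% to 4.77% with LPS and 0.466% to 0.984% between genotypes. The alpha subunit that Rgs2 acts on most, Gnaq, gave 4823 units in DKO cells with LPS and 2958 in untreated DKO cells, against 4242 in WT cells with LPS and 2405 in untreated WT cells. Its LPS differences were 0.71 in DKO cells and 0.82 in WT cells, opposite in sign to those of Rgs2 and short of 2-fold, although with array medians set equal Gnaq passed it in WT cells at 1.03. Gnaq was chosen for mention after its values were seen.

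Of the G protein effectors with an LPS difference, 2 of 13 were called higher and 2 lower in DKO cells, where 4.66% of all genes were higher and 4.77% lower, and 2 of 11 were called higher and 1 lower in WT cells, where 3.36% were higher and 3.41% lower. The higher ones were the regulatory subunits of phosphoinositide 3-kinase gamma, an effector of beta and gamma subunits. Pik3r5 was 3.10-fold higher in DKO cells and 2.23-fold in WT cells, and Pik3r6 was 2.89-fold higher in DKO cells and 2.58-fold in WT cells, with its other probe set also past 2-fold in both. The adenylyl cyclase gene Adcy9 was 2.44-fold lower in DKO cells and 2.28-fold lower in WT cells, and 2 of its 3 other probe sets were short of 2-fold in both genotypes. In WT cells Adcy9 lost its call with equal medians (-0.97) and cyclic loess (-0.99). The phospholipase gene Plcb2 was lower in DKO cells by -1.07 and gave -0.42 in WT cells, and it lost its call in DKO cells after quantile normalization (-0.97) and cyclic loess (-0.92). Among nucleotide exchange regulators and arrestins, 1 of 7 was lower in DKO cells and 1 of 8 in WT cells. It was Ric8a, a chaperone of G alpha subunits, at -1.11 in DKO cells and -1.38 in WT cells, but its other probe sets that cleared the floor on all 4 arrays gave -0.31 and 0.92 in DKO cells. No gene on these lists passed 2-fold between genotypes, which few genes did. Over all genes 0.845% were higher and 0.934% lower in DKO cells with LPS, and 0.466% higher and 0.984% lower without.

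**Figure D4:**
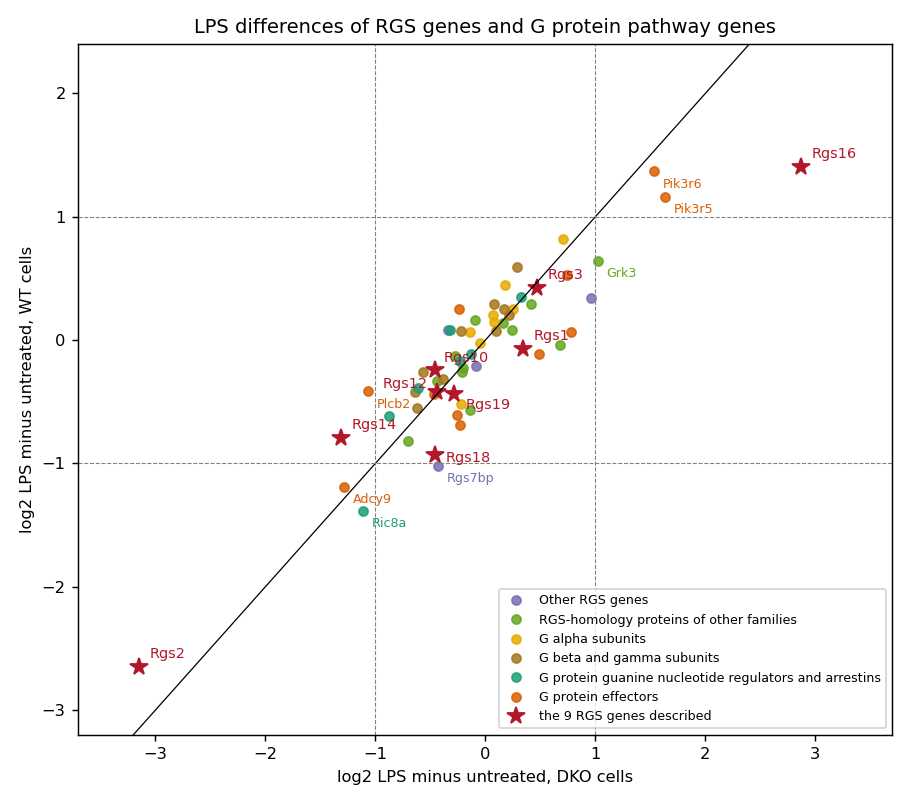
Log2 LPS difference in DKO cells (horizontal) against WT cells (vertical) for the 9 RGS genes (red stars) and the genes of 6 G protein pathway lists (coloured circles) with a difference in both; dashed lines mark 2-fold and the solid line equality. Rgs2 and Rgs16 lie farther from zero than the circles, at -3.15 and 2.87 in DKO cells, the second a bound.

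In the RefSeq gene order Rgs2, Rgs13, Rgs1, Rgs21 and Rgs18 follow each other on chromosome 1 with no other protein-coding gene between them. Of these neighbours Rgs2 fell with LPS, Rgs1 and Rgs18 did not pass 2-fold, and Rgs13 gave at most 1.31 units on any array. Uchl5, which flanks Rgs2 on the other side and encodes a deubiquitinase, gave LPS differences of -0.40 in DKO cells and -0.28 in WT cells. Rgs8, next to Rgs16, gave at most 30.3 units.

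The genes with the pattern most like that of 3 members were sought among 9981 genes above the floor on all arrays, by the root mean square distance of centred log2 values over the 4 arrays. Nearest to Rgs2 were Enc1, an actin-binding protein gene, at 0.16, the arrestin-domain gene Arrdc3 at 0.20 and Fam214a at 0.22. Enc1 gave LPS differences of -3.22 in DKO cells and -2.42 in WT cells. Nearest to Rgs16, taken with its untreated DKO value at the floor, were the orphan receptor gene Gpr85 at 0.17, the calcium-binding protein gene Gca at 0.24 and the cell cycle inhibitor gene Cdkn2b at 0.27. Gpr85 gave LPS differences of 3.19 in DKO cells and 1.49 in WT cells. Nearest to Rgs1 were Sec24b, a vesicle coat gene, at 0.015, Pyroxd2 at 0.019 and Bloc1s4 at 0.028. With 4 arrays such likeness describes these arrays only.

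All 8 macrophage markers, Csf1r, Adgre1, Cd68 and Lyz2 among them, were above the floor on every array, and Tnf gave 18766 units in DKO cells with LPS and 119 without, against 14788 in WT cells with LPS and 122 without. Hes1 and Hey1 were at most 10.2 units on the DKO arrays and at most 57.2 on the WT arrays, so dim that they check the genotype labels weakly. The 4 measured markers each of B cells, T and NK cells, dendritic cells and stroma were under the floor on all arrays. Of 4 mast cell and basophil markers Kit alone passed the floor, at 96.9 units in DKO cells with LPS and 155 without, against 145 in WT cells with LPS and 161 without. Of 2 measured erythroid markers Klf1 passed it on the LPS arrays alone, at 53.8 units in DKO cells and 53.6 in WT cells. Of 5 measured megakaryocyte and platelet markers, where Rgs18 is also expressed, 3 were above the floor on all arrays, and their sum was 6999.7 units in DKO cells with LPS and 4201 without, against 6225 in WT cells with LPS and 4614 without, nearly all of it Pf4. Pf4 and Gp9 read higher with LPS in both genotypes, and Itga2b in DKO cells only. Ppbp passed the floor in WT cells with LPS alone, at 80.1 units. Gp1bb read lower, at 44.2 units in DKO cells with LPS, under the floor, and 66.9 without, against 65.9 in WT cells with LPS and 82.0 without. The part of such cells in the Rgs18 values was not tested. The 4 progenitor markers summed to 330 units in DKO cells with LPS and 395 without, against 633 in WT cells with LPS and 943 without, most of it Cd34, with Mpo, Elane and Prtn3 under the floor. The 6 neutrophil markers summed to 983 units in DKO cells with LPS and 1421 without, against 1689 in WT cells with LPS and 2137 without. The fall of the neutrophil sum with LPS came from Mmp8, at 588 units in DKO cells with LPS and 1072 without, against 1119 in WT cells with LPS and 1612 without. S100a8, the other neutrophil marker above the floor, gave 333 in DKO cells with LPS and 284 without, against 465 in WT cells with LPS and 463.0 without. Mmp8 and S100a8 each read lower in DKO than in WT cells, with LPS and without. Cd34, Kit and Mmp8 read lower with LPS, as did Rgs2 and Rgs14, and the part of such cells in those differences was not tested. In bulk RNA, fewer cells of a type and less RNA per cell cannot be told apart.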

How the data were processed

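The deposited table holds 1 linear intensity per probe set for each of 4 Affymetrix mouse arrays. The authors' values had a mean of 500.0 per array after trimming 2% at either end, computed from the file, which shows an equal trimmed mean as their scaling. The software is not stated in the labels. With this scaling, the level of dim probe sets can still differ between arrays. The 64 control probe sets were left out, and 34945 probe sets had 1 gene in the platform annotation, of which 34741 took their symbol through a RefSeq table of GRCm38.p6. That table also gave gene order, and the array annotation names no build.

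Differences are log2 of 2 arrays with the floor at the median of all values. The members, lists and alternatives were chosen with earlier results of these data known. Named genes were the 9 members, list members past 2-fold, the 3 nearest in pattern to Rgs1, Rgs2 and Rgs16, chromosome neighbours and controls. Of 81 list entries those measured are counted. Python 3.11.15 with numpy 2.4.6, pandas 2.3.3 and matplotlib 3.10.9, and R 4.3.3 with limma 3.58.1 for cyclic loess, were used.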

Additional observations from a re-analysis of the deposited data

Results flagged for a closer look

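The LPS differences of Rgs1 had opposite signs in the genotypes, 0.34 in DKO cells and -0.077 in WT cells by 1417601_at, each on 1 array per group. With equal array medians the WT value was 0.14, so that the signs were the same. The same held for Rgs3 by 1449516_a_at, at -0.0013 in DKO cells and 0.31 in WT cells, while its brightest probe set was positive in both. Neither difference between genotypes was tested, and none of the 4 values reached 2-fold.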

How the results depend on the processing

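Of 80 counts of called members over 10 alternatives, 69 stayed within 1.5 times the count reported. With a floor at the 35th percentile 1 member, Rgs16, was lower in untreated DKO against WT cells, where 0 had been. With a floor at the 65th percentile 0 were higher with LPS in WT cells. With the median of probe sets 0 were higher in DKO against WT cells with LPS. Without probe sets shared between transcripts, which removes every probe set of Rgs3, Rgs14, Rgs16 and Rgs19, 0 were higher in either LPS comparison or in DKO against WT with LPS, and 1, Rgs2, was lower in DKO cells. A 1.5-fold threshold made Rgs2, Rgs14 and Rgs18, 3 members, lower with LPS in WT cells. A 3-fold threshold left 1 lower in DKO cells, Rgs2, and 0 higher in WT cells or in DKO against WT with LPS. Over 8 alternatives the LPS difference of Rgs2 ran from -3.49 to -3.10 in DKO cells and -2.77 to -2.43 in WT cells. For Rgs16 it ran from 1.20 to 3.88 in DKO cells over 7 alternatives and from 1.19 to 1.66 in WT cells over 6, and the DKO minus WT difference of LPS effects from 0.54 to 2.48. No called member changed sign, and of 324 member values 5 did, all under 0.20 in size. With equal array medians the median difference over all genes was 0.12, against -0.086, for LPS in WT cells and 0.19, against -0.017, for untreated DKO against WT cells. They made the genes called with LPS in WT cells 520 higher and 194 lower, against 386 and 392, and those in untreated DKO against WT cells 97 and 43, against 53 and 112. Counts over all genes also moved with the floor. With LPS they were 800 higher and 771 lower in DKO cells and 548 and 791 in WT cells with a floor at the 35th percentile, and 1009 and 904 in DKO cells and 779 and 925 in WT cells with an offset of 16 units, against 524 and 536 in DKO cells and 386 and 392 in WT cells. Between DKO and WT cells they were 327 and 318 with LPS and 173 and 495 without at the 35th percentile, 37 and 37 with LPS and 21 and 42 without at the 65th, and 498 and 547 with LPS and 337 and 707 without with the offset, against 95 and 105 with LPS and 53 and 112 without. No paired analysis was possible because each group has 1 array. Bacterial control probe sets reached 46.0 units on the WT array with LPS, close to the floor. On the untreated arrays they reached 16.9 units in DKO cells and 32.7 in WT cells. With the floor in use, the untreated DKO value of Rgs16 gives only a bound, which limits what Rgs16 can show in untreated cells.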
